A study of Mus musculus with 6 samples.

Results

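The collagen genes were described in embryoid bodies (EBs), the floating aggregates in which mouse embryonic stem cells (mESCs) differentiate, with and without functional EVX1, a homeodomain transcription factor of the gastrulating embryo. Members were all genes of the deposited table whose symbol has the form Col, type number, a, chain number, which gave 44 of the 23353 listed genes. They were grouped as 9 fibrillar genes (types 1, 2, 3, 5 and 11), 6 basement membrane genes (type 4) and 29 others. Day 4 EBs had been grown in serum without LIF from 2 lines with 3 libraries each. The wildtype was the W9.5 mESC line, and EVX1-Δfs was clone 14 derived from it by CRISPR-Cas9, with small frameshift deletions on both Evx1 alleles in the homeodomain part of exon 2. These libraries hold a single edited clone, so within them the edit and any other difference of that clone cannot be told apart. The paper also compared clone 14 with a second EVX1-Δfs clone by qPCR of patterning genes and reports no significant differences. By mRNA-seq it reports only 3 genes that differed between EVX1-Δfs and a separate line with a larger deletion in the locus. Those data were not used here. Wildtype and EVX1-Δfs differentiations were run side by side, and each of the 3 pairs was set up on its own day. The Evx1 transcript itself does not check the genotype, since a small deletion need not change its level, and its log2 fold change was -0.02 (limma, adjusted p = 0.950).

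Collagens are trimeric proteins of the extracellular matrix, built from chains that wind into a triple helix. Fibrillar collagens form the banded fibres of connective tissue, type IV collagen forms the network of every basement membrane, and most of the remaining types decorate fibrils, span the plasma membrane or link the matrix layers to each other. Chains are hydroxylated and folded with dedicated enzymes and chaperones in the endoplasmic reticulum, trimmed outside the cell and then cross-linked. In the early embryo, type IV collagen is laid down beneath the epiblast and by parietal endoderm, and type I collagen is known as a product of mesenchymal cells. The values here are of whole aggregates, so fewer cells of a type and less RNA per cell cannot be told apart.

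Values are normalized counts, that is reads per gene divided by 1 size factor per library, and between 7597879 and 9914471 reads were assigned to genes in a library. The 44 collagen genes together took 0.106% to 0.178% of these reads. A gene was tested when at least 3 libraries reached a normalized count of 10. This left 34 collagens, of which 29 reached 10 in all 6 libraries and 5 in fewer. Fold changes give EVX1-Δfs relative to wildtype as differences of log2(normalized count + 1), which understates the change of low genes, and a gene was called at a limma adjusted p under 0.05.

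A few genes made up most of the family's reads. Col4a1, Col5a1, Col18a1 and Col4a2 held 76.8% to 79.2% of the summed normalized count of all collagens in every library. Compared per kilobase of transcript, Col4a1 stood highest in wildtype EBs at 594 normalized counts per kb, followed by Col4a2 at 329, Col18a1 at 303 and Col5a1 at 268. Col1a1 came next at 76.7 and Col1a2 stood at 39.8. In EVX1-Δfs EBs Col4a1 was again the highest at 457 normalized counts per kb, Col18a1 stood at 300.5, Col4a2 at 231 and Col5a1 at 202, while Col1a1 and Col1a2 stood at 22.4 and 22.5. Per kb, the major basement membrane chains, Col18a1 and Col5a1 thus stood well above the type I chains of connective tissue in both genotypes. The plot of levels by library shows the step between the 4 leading genes and the rest.

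**Figure D1:**
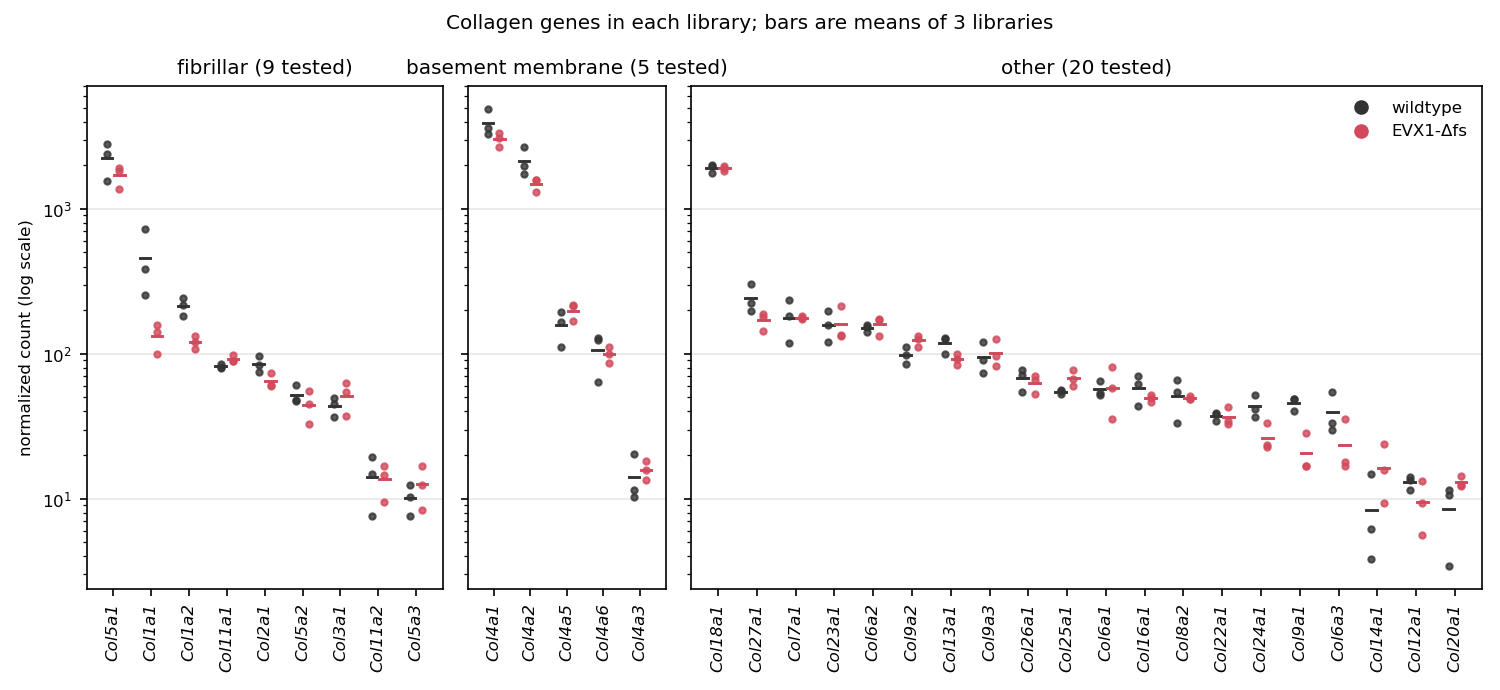
Normalized count of each tested collagen gene (log scale) in 3 wildtype and 3 EVX1-Δfs libraries, in 3 panels for the fibrillar, basement membrane and other genes, ordered by mean and not divided by length; points are libraries and bars are means of 3. Col4a1, Col4a2, Col5a1 and Col18a1 lie apart from the rest in every library, and Col1a1 and Col1a2 show separate wildtype and EVX1-Δfs points.

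Of the 34 tested collagens, 4 were called lower in EVX1-Δfs EBs, namely Col1a1, Col1a2, Col4a2 and Col9a1. Across all 13136 genes tested, 2.95% were called lower and 2.08% higher, 5.02% in all. These were 387 and 273 genes, against 325 and 370 under upper-quartile scaling, which called the same 4 collagens. No collagen was called higher by limma, DESeq2 or edgeR, and none had a higher value at an unadjusted limma p under 0.05, whereas 9 were lower at that unadjusted threshold, which 12.4% of all genes passed as lower and 10.7% as higher. DESeq2 and edgeR on the recovered reads called the same 4 genes. Fitted fold changes lay below 0 for 19 members and above 0 for 15, with a median of -0.03, against 49.9% below 0 and a median of 0.00 over all genes tested. Trends on GC content and length removed, the median was 0.02 and the split 15 below and 19 above. Leaving out 1 library gave medians from -0.15 (without EVX1-Δfs library 2, 22 below and 12 above) to 0.01 (without wildtype library 2, 16 below and 18 above). The wildtype and EVX1-Δfs libraries did not overlap for 8 members that were lower and 4 that were higher, where 14.7% and 12.2% of all genes did the same.

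With the replicate number, taken to mark the shared day, as a block in limma, 2 collagens were called lower, Col1a1 and Col1a2, beside 1.11% of all genes. Leaving out wildtype library 2, EVX1-Δfs library 1 or EVX1-Δfs library 2 also left these 2, and leaving out wildtype library 3 gave 6 by adding Col4a1 and Col5a1. Across the table, genes of higher GC content had lower fold changes (rho of -0.46, Spearman, over 12978 genes, which are not independent), and tested collagens had a median GC content of 56.3% against 50.3% over all tested genes. With trends on GC and length removed per library, 3 collagens were called lower, Col1a1, Col1a2 and Col9a1, beside 1.16% of all genes, and with the block as well 2 were, Col1a1 and Col1a2, beside 0.701%.

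**Figure D2:**
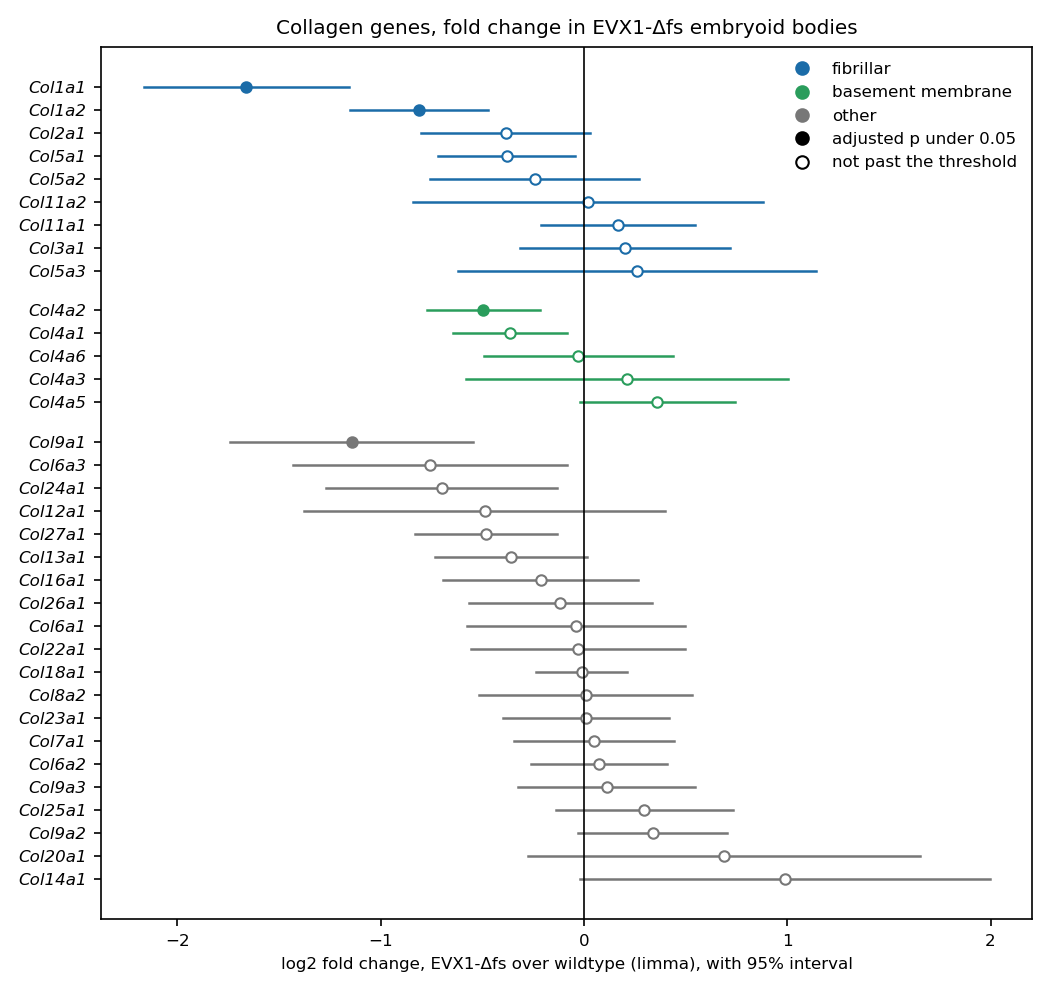
Fold change of each tested collagen gene in EVX1-Δfs over wildtype EBs (log2, limma) with its 95% interval, 3 libraries per genotype; filled points have an adjusted p under 0.05 and colours mark the 3 groups. The 4 filled points, Col1a1, Col9a1, Col1a2 and Col4a2, all lie left of 0, and most other intervals cross 0.

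Among the fibrillar collagens, both type I chains were lower in EVX1-Δfs EBs and no other gene was called. Col1a1 and Col1a2 encode the chains of type I collagen, the main collagen of bone, tendon and skin. Col1a1 (chromosome 11 from 94797538 to 94814356, plus strand, NCBIM37) stood at 386, 725 and 254 normalized counts in wildtype libraries 1, 2 and 3 and at 99.9, 157 and 141 in EVX1-Δfs libraries 1, 2 and 3. The wildtype libraries were spread widely, yet the lowest of them lay above the highest EVX1-Δfs library. The mean went from 455 ± 243 to 133 ± 29.4 (SD, n = 3), and the log2 fold change was -1.66 ± 0.24 (SE), at an adjusted p of 3.3e-04 in limma. Without wildtype library 2 the log2 fold change was -1.26, and with the replicate block the adjusted p was 0.00407. Col1a1 kept its call in all 19 fits, with adjusted p up to 0.00785. Its exons share 109 bases with Gm17329 on the opposite strand, where reads can be told apart only if counted by strand, as HTSeq does at its standard settings.

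Col1a2 (chromosome 6 from 4454814 to 4491543, plus strand) stood at 215, 242 and 181 normalized counts in wildtype libraries and at 120.4, 133 and 108 in EVX1-Δfs libraries. The groups did not overlap, and the same wildtype library was highest for both type I chains. The mean fell from 213 ± 30.4 to 120.4 ± 12.7 (SD, n = 3), and the log2 fold change was -0.81 ± 0.16 (SE), at an adjusted p of 0.00685 in limma. It was called in all 19 fits, with log2 fold changes from -0.98 to -0.71, and with the replicate block the adjusted p was 0.0204.

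The sequence ahead of Col1a2 is shown because it is the only called type I gene with an entry in the RefSeq promoter table used here (GRCm38.p6), whose sequences were matched to NCBIM37 without a mismatch. The line gives chr6:4455370-4455492 on the plus strand, 5′ to 3′. It lies upstream of the RefSeq start at 4455618, and the GENCODE vM1 annotation places it inside Col1a2 but outside its exons. Capitals mark the GC box GGGCGG, searched on both strands.
Col1a2 upstream: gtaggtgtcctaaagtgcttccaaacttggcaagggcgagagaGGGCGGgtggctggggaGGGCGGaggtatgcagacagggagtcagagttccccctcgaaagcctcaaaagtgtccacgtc

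Type V collagen, which nucleates and limits the width of type I fibrils, was read mainly from Col5a1. Col5a1 (chromosome 2 from 27741945 to 27895034, plus strand) stood at 2406, 2804 and 1553 normalized counts in wildtype libraries and at 1372, 1915 and 1810 in EVX1-Δfs libraries. Wildtype library 3 lay inside the EVX1-Δfs range, so the groups overlapped. The log2 fold change was -0.38 (95% interval -0.72 to -0.04) with a limma adjusted p of 0.163, and without wildtype library 3 it was -0.63 with an adjusted p of 0.00828. It was -0.20 without wildtype library 2 and -0.23 without EVX1-Δfs library 1, with adjusted p of 0.490 and 0.488 in limma. The lincRNAs Gm13372 and 2810430I11Rik on the opposite strand share 113 and 99 bases of its exons.

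Per kb of transcript its partner chains stood far lower, at 7.82 normalized counts for Col5a2 and 1.65 for Col5a3 against 268 for Col5a1 in wildtype EBs. Col5a2 stood at 47.8, 46.9 and 60.7 normalized counts in wildtype and at 32.7, 45.1 and 55.3 in EVX1-Δfs libraries, with a log2 fold change of -0.24 (limma, adjusted p = 0.596). Col5a3 ranged from 7.65 to 12.4 in wildtype and from 8.40 to 16.9 in EVX1-Δfs libraries, with a log2 fold change of 0.26 (limma, adjusted p = 0.757). Neither chain separated the genotypes.

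The remaining fibrillar genes include the cartilage collagens and type III collagen, which accompanies type I in distensible tissues. Col2a1 stood at 96.6, 83.2 and 74.4 normalized counts in wildtype and 60.7, 59.8 and 73.4 in EVX1-Δfs libraries, a log2 fold change of -0.38 (limma, adjusted p = 0.254). Col3a1 ranged from 36.6 to 49.8 in wildtype and from 37.2 to 62.6 in EVX1-Δfs EBs, so that the groups overlapped where those of the type I chains did not. Col11a1, whose chain joins cartilage fibrils, ranged from 80.4 to 84.7 and from 88.6 to 98.1 without overlap, but its log2 fold change of 0.17 had an adjusted p of 0.622. Col11a2 was low, between 7.65 and 19.5 normalized counts in wildtype libraries. Of the 9 fibrillar genes, 2 were called lower and none higher, and 5 were fitted below 0. Their summed normalized count went from 3208 ± 898 to 2230 ± 325 (SD, n = 3), of which Col5a1 made up most. The sum in wildtype library 3, 2269, lay inside the EVX1-Δfs range of 1863 to 2477.

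Among the basement membrane genes, Col4a2 was called and its neighbour Col4a1 was not. The chains of Col4a1 and Col4a2 assemble together into the type IV collagen found in basement membranes of nearly all tissues, and the genes lie head to head on chromosome 8. Col4a2 (11312805 to 11449287, plus strand) stood at 1972, 2652 and 1751 normalized counts in wildtype and at 1302, 1588 and 1583 in EVX1-Δfs libraries. All EVX1-Δfs libraries lay below all wildtype libraries. The mean went from 2125 ± 470 to 1491 ± 163 (SD, n = 3), and the log2 fold change was -0.49 ± 0.13 (SE), at an adjusted p of 0.0365 in limma. The call did not hold under the replicate block (adjusted p of 0.0638) or without the GC and length trends (log2 fold change of -0.34, adjusted p of 0.197), and it held in 12 of 19 fits. It was also lost without wildtype library 2 (log2 fold change of -0.32) and without any 1 of the EVX1-Δfs libraries.

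Col4a1 (11198423 to 11312826, minus strand) stood at 3613, 4896 and 3285 normalized counts in wildtype and at 2653, 3344 and 3079 in EVX1-Δfs libraries. Here EVX1-Δfs library 2 lay above wildtype library 3. The log2 fold change was -0.36 (95% interval -0.64 to -0.08) with a limma adjusted p of 0.111, and without wildtype library 3 it was -0.48 with an adjusted p of 0.0368. Without wildtype library 2 it was -0.19, at 0.417. The order of the libraries within each genotype was alike for the paired genes, with wildtype library 2 highest and EVX1-Δfs library 1 lowest.

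The annotated first exons of this pair share 22 bases on opposite strands at chr8:11312805-11312826 in NCBIM37. The bases are shown on the plus strand, the strand of Col4a2, because the called gene and its uncalled neighbour are annotated to start there, and capitals again mark GGGCGG.
Col4a1 and Col4a2 shared start: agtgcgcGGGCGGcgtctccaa

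The other type IV chains are restricted to particular basement membranes such as those of the kidney. Per kb, Col4a5 and Col4a6 stood at 24.0 and 15.9 normalized counts in wildtype EBs, against 594 for Col4a1. Col4a5 stood at 165, 195 and 112 normalized counts in wildtype and at 167, 212 and 216 in EVX1-Δfs libraries, a log2 fold change of 0.36 (limma, adjusted p = 0.239). Col4a6, its head to head neighbour on the X chromosome, stood at 128, 124 and 64.1 in wildtype and at 112, 99.2 and 86.7 in EVX1-Δfs libraries. The log2 fold change of Col4a6 was -0.03 (95% interval -0.49 to 0.44) with an adjusted p of 0.958. The genotypes overlapped for both, and wildtype library 3 was the lowest of the 6 for each. Col4a3 ranged from 10.3 to 20.4 in wildtype and from 13.5 to 18.1 in EVX1-Δfs EBs. Col4a4, which starts 71 bases from Col4a3 in the opposite direction, reached at most 1.91 normalized counts and was not tested.

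Col9a1 was the only gene called among the 29 collagens that are neither fibrillar nor of type IV, of which 20 were tested. It encodes a chain of type IX collagen, which sits on the surface of cartilage fibrils. Col9a1 (chromosome 1 from 24184449 to 24259577, plus strand) stood at 48.8, 48.7 and 40.1 normalized counts in wildtype and at 16.8, 16.9 and 28.6 in EVX1-Δfs libraries. The groups did not overlap, although only 15 to 55 reads lay behind a value. The mean went from 45.9 ± 5.00 to 20.8 ± 6.77 (SD, n = 3), and the log2 fold change was -1.14 ± 0.29 (SE), at an adjusted p of 0.0259 in limma. With the replicate block the adjusted p was 0.0679, and with the GC and length trends removed it was 0.0431. The call held in 11 of 18 fits and was lost without wildtype library 1, wildtype library 2, EVX1-Δfs library 1 or EVX1-Δfs library 2.

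Col9a1 has RefSeq starts 17593 bases apart, which a count per gene does not separate, and the sequence ahead of each is shown for that reason. The first is chr1:24184199-24184448 and the second chr1:24201792-24202025, both on the plus strand of NCBIM37, 5′ to 3′ and outside annotated exons. Neither holds, within the bases shown and on either strand, the CCAAT box, the GC box, the TATA box or the homeodomain core TAATTA, so no letter is in capitals.
Col9a1 upstream start: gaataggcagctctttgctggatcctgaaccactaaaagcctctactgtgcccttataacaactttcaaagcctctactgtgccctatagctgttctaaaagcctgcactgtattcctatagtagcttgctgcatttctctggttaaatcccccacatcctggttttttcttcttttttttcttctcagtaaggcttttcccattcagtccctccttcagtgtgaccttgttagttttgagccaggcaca
Col9a1 downstream start: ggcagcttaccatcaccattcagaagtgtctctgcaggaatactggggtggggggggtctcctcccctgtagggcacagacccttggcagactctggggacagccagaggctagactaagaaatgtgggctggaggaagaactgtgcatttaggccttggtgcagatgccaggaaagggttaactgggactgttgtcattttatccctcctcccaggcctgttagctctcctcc

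The partner chains of Col9a1 were not called. Col9a2 stood at 111, 85.0 and 97.3 normalized counts in wildtype and at 132, 127 and 111.5 in EVX1-Δfs libraries, a log2 fold change of 0.34 (limma, adjusted p = 0.253). Its groups were separated only by the step from 111 in wildtype library 1 to 111.5 in EVX1-Δfs library 3. Col9a3 stood at 120.5, 90.3 and 73.3 in wildtype and at 82.2, 126 and 97.2 in EVX1-Δfs libraries, with a log2 fold change of 0.11 (limma, adjusted p = 0.790). Exons of Col9a3 share 234 bases with Tcfl5 on the opposite strand.

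Col18a1 encodes the basement membrane collagen that is the source of endostatin and was not called. It stood at 1772, 1989 and 1998 normalized counts in wildtype and at 1826, 1975 and 1913 in EVX1-Δfs libraries. All EVX1-Δfs libraries lay inside the wildtype range. The log2 fold change was -0.01 (95% interval -0.23 to 0.21) with a limma adjusted p of 0.969, and its sign depended on the scaling and the fit. That interval excludes a fall as large as the one fitted for Col1a2. Col15a1, the related collagen of many vessel walls, stayed at or below 6.77 normalized counts and was not tested.

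Type VI collagen forms beaded filaments close to basement membranes. Col6a1 stood at 65.1, 52.2 and 53.8 normalized counts in wildtype and 35.5, 81.2 and 58.1 in EVX1-Δfs libraries, and Col6a2 at 142, 158 and 152 against 175, 170.3 and 133. Limma adjusted p was 0.945 for Col6a1 and 0.821 for Col6a2, and the genotypes overlapped for both. Col6a3, the large chain of the heterotrimer, stood at 33.5, 54.9 and 29.8 in wildtype and 16.8, 18.0 and 35.3 in EVX1-Δfs libraries. Its log2 fold change was -0.76 (95% interval -1.43 to -0.08) with an adjusted p of 0.164, and EVX1-Δfs library 3 lay above wildtype libraries 1 and 3. Col6a4, Col6a5 and Col6a6 stayed low, with a highest value of 10.3, and were not tested.

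The fibrillar-like genes Col24a1 and Col27a1 both separated the genotypes without passing the threshold. Col27a1, a collagen of cartilage, ranged from 197 to 302 normalized counts in wildtype and from 144 to 189.5 in EVX1-Δfs libraries, with a log2 fold change of -0.48 (limma, adjusted p = 0.0898). Col24a1, known from developing bone, ranged from 36.6 to 51.7 and from 22.6 to 33.4, with a log2 fold change of -0.70 (limma, adjusted p = 0.128). In both genes every EVX1-Δfs library lay below every wildtype library, as was so for 14.7% of all genes tested.

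The fibril-associated collagens, which bind to the surface of fibrils or to other matrix, gave no further call. Col14a1 had the highest fitted fold change of the family, 0.99 on the log2 scale (95% interval -0.02 to 2.00), with a limma adjusted p of 0.226, from 3.83 to 14.9 normalized counts in wildtype and 9.34 to 23.8 in EVX1-Δfs libraries. Col20a1 ranged from 3.44 to 11.5 and from 12.1 to 14.3, without overlap and with an adjusted p of 0.390. Col12a1, Col16a1 and Col22a1 had log2 fold changes of -0.49, -0.21 and -0.03, and each overlapped between genotypes. Of the 9 genes of this class, 8 were tested, with 4 fitted below 0 and 4 above.

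Among the membrane-spanning collagens, Col13a1, found at cell adhesions, ranged from 99.6 to 128 normalized counts in wildtype and from 83.5 to 99.1 in EVX1-Δfs libraries, with a log2 fold change of -0.36 (limma, adjusted p = 0.235). Col25a1 ranged from 52.6 to 56.1 and from 59.8 to 77.5, with a log2 fold change of 0.30 (limma, adjusted p = 0.411). Col23a1 had a log2 fold change of 0.01. Col13a1 and Col25a1 thus did not overlap between genotypes and lay in opposite directions, each with a 95% interval that covers 0. Col7a1, the anchoring fibril collagen of skin, Col8a2 of the short-chain collagens and Col26a1 had log2 fold changes of 0.05, 0.01 and -0.12. For these 3 genes the genotypes overlapped.

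The 10 collagens that were not tested were Col4a4, Col6a4, Col6a5, Col6a6, Col8a1, Col10a1, Col15a1, Col17a1, Col19a1 and Col28a1, and the highest normalized count of any of them was 10.6. Col10a1, the marker of hypertrophic cartilage, had 0 reads in each library, which allows up to 3 reads per library. At this depth no difference could be detected for these genes.

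The ratio of chains that assemble into one molecule does not depend on library scaling and was compared in each library, per kilobase of transcript. Col1a1 to Col1a2 was 1.61, 2.71 and 1.27 in wildtype and 0.748, 1.06 and 1.18 in EVX1-Δfs libraries. Every EVX1-Δfs ratio lay below every wildtype ratio. The mean log2 ratio went from 0.82 ± 0.56 to -0.03 ± 0.34 (SD, n = 3), a difference of -0.85 with an exact two-sided permutation p of 0.1, which is the smallest that 3 against 3 allows. Reads of Col1a1 were 75.0% of the type I reads in wildtype library 2 (95% Wilson interval 72.3% to 77.5%) and 45.3% in EVX1-Δfs library 1 (39.1% to 51.7%), the extremes of the genotypes, and the intervals cover counting error only. The nearest libraries overlapped in their intervals, at 58.4% in wildtype library 3 (53.4% to 63.3%) and 56.7% in EVX1-Δfs library 3 (50.6% to 62.6%). The difference of the log2 ratio was -0.55 without wildtype library 2. With GC and length trends removed it was -0.56, with an exact permutation p of 0.3, so the genotypes were no longer fully separated.

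Col4a1 to Col4a2 was 1.79, 1.80 and 1.83 in wildtype and 1.99, 2.05 and 1.90 in EVX1-Δfs libraries. The wildtype ratios were tight, and all EVX1-Δfs ratios lay above them. The difference of mean log2 ratios was 0.13, with an exact permutation p of 0.1, and 0.090 with an exact permutation p of 0.3 once the trends were removed. Col5a1 to Col5a2 (20.2 to 47.1 in wildtype and 25.8 to 33.5 in EVX1-Δfs) and Col6a1 to Col6a2 (0.319 to 0.443 and 0.196 to 0.459) overlapped, with exact permutation p of 0.8 and 0.9. Col4a5 to Col4a6, a pair added after the values were seen, differed by 0.39 in mean log2 ratio with an exact permutation p of 0.3.

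**Figure D3:**
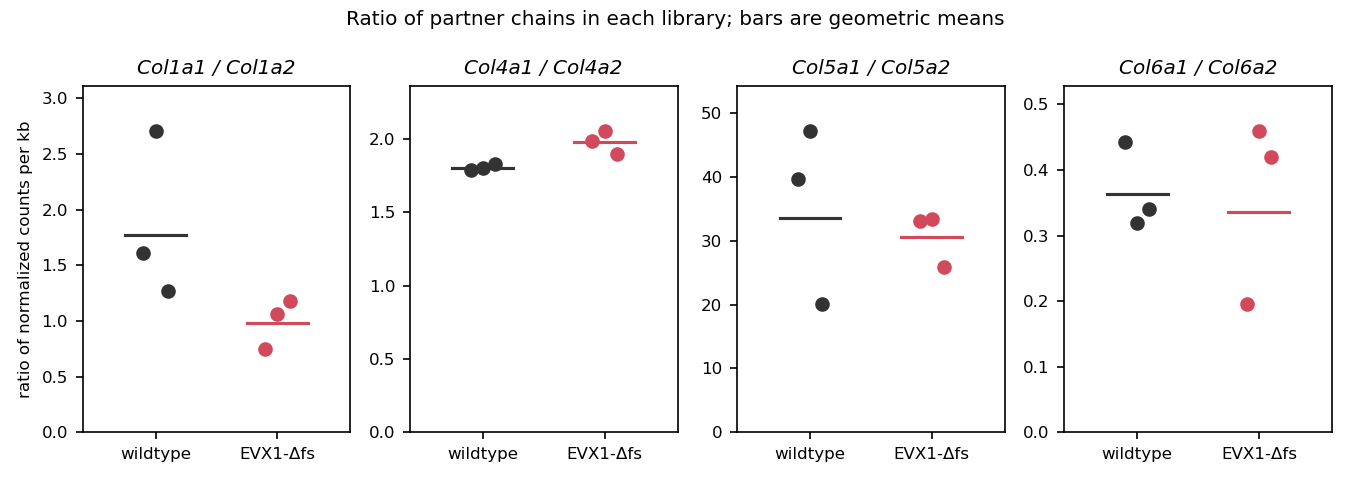
Ratio of normalized counts per kb of transcript for 4 pairs of collagen chains, with 1 point per library (3 wildtype, 3 EVX1-Δfs) and bars at geometric means; each vertical axis starts at 0 and has its own scale. The genotypes do not overlap for Col1a1 to Col1a2 (lower in EVX1-Δfs) and Col4a1 to Col4a2 (higher in EVX1-Δfs), and overlap for the other pairs.

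For many collagens wildtype library 2 was the high one of its genotype and wildtype library 3 the low one, which is given as a description. Wildtype library 2 was the highest of the wildtype libraries for 17 of the 34 tested collagens (50%), against 30.9% of all genes tested. Wildtype library 3 was the lowest for 22 (64.7%), against 37.6%. EVX1-Δfs library 1 was the lowest of its genotype for 18 (52.9%), against 33.2%. The sum of all collagens was 12590, 15610 and 10840 normalized counts in wildtype and 9314, 11260 and 10670 in EVX1-Δfs libraries, so wildtype library 3 lay inside the EVX1-Δfs range.

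The family's windows of 250 bases ahead of RefSeq starts were searched for short motifs on both strands, with 38 windows for 35 of the 44 members. GGGCGG, the GC box, was in 22 collagen windows (57.9%) and in 32.7% of all 32851 windows in the table. CCAAT was in 13 (34.2%, against 33.8%), including those of Col1a2, Col4a1, Col4a2 and the downstream start of Col9a1. TATAAA was in 5 (13.2%, against 12.4%). TAATTA, a core that many homeodomains bind, was in 2 (5.26%, against 4.84%), those of Col10a1 and Col11a2. Col10a1 had no reads and was not tested, and Col11a2 was not called. Col1a1 had no window in the RefSeq promoter table and so was not searched. A match is a string of letters and was not tested as a binding site.

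The machinery that makes, trims and holds collagen was read from 75 genes in 8 roles, of which 58 were tested. Of these, 4 were called lower, Plod3, Fkbp10, Bgn and Fn1, and the median log2 fold change was -0.12. None was called higher by limma, DESeq2 or edgeR, and none was higher at an unadjusted limma p under 0.05, where 14 were lower, against the 12.4% lower and 10.7% higher of all genes tested. The adjusted calls stand beside 2.95% and 2.08% of all genes. With the replicate block 2 kept an adjusted p under 0.05, Fkbp10 and Fn1.

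Fn1 encodes fibronectin, the matrix protein on which cells assemble type I collagen. It stood at 28670, 38970 and 23620 normalized counts in wildtype and at 12590, 17490 and 15050 in EVX1-Δfs libraries. As for Col1a1, wildtype library 2 was highest, EVX1-Δfs library 1 lowest, and the groups did not overlap. The log2 fold change was -0.998 ± 0.168 (SE), at an adjusted p of 0.00149 in limma, and it was called in all 19 fits. Bgn, which encodes the small proteoglycan biglycan that binds collagen fibrils, stood at 90.9, 96.5 and 45.8 in wildtype and at 22.4, 29.3 and 37.2 in EVX1-Δfs libraries. Its log2 fold change was -1.32 ± 0.28 (SE), at an adjusted p of 0.0106 in limma and of 0.0550 with the replicate block, and the call was also lost without EVX1-Δfs library 1 (0.0528). Sparc, a collagen-binding glycoprotein of the same role, had a log2 fold change of -0.11 (limma, adjusted p = 0.653).

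In the endoplasmic reticulum, Fkbp10, a chaperone of type I procollagen, stood at 707, 695 and 749 normalized counts in wildtype and at 471.5, 509.8 and 488 in EVX1-Δfs libraries. These groups were far apart relative to their spread. The log2 fold change was -0.55 ± 0.11 (SE), at an adjusted p of 0.00903 in limma and of 0.0608 once GC and length trends were removed. Plod3, a lysyl hydroxylase that also adds glucose to collagen, stood at 1079, 1011 and 1008 in wildtype and at 722, 778 and 794 in EVX1-Δfs libraries, a log2 fold change of -0.43 (limma, adjusted p = 0.0267, and 0.0615 with the replicate block). The Plod3 call held in 12 of 19 fits and was also lost with trends removed (adjusted p of 0.135) and without wildtype library 1 or 2 or EVX1-Δfs library 1 or 3. P4hb, a subunit of prolyl 4-hydroxylase, and the prolyl isomerase Ppib had log2 fold changes of -0.21 and -0.13 with adjusted p of 0.318 and 0.499. Serpinh1, the collagen chaperone HSP47, had a log2 fold change of -0.28 (limma, adjusted p = 0.172). Called lower was 1 of the 13 tested hydroxylation genes and 1 of the 8 tested folding and export genes.

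No gene of the other 5 roles was called by limma, DESeq2 or edgeR. Bmp1, which removes the C-terminal propeptide of fibrillar procollagens, and Pcolce, its enhancer, had log2 fold changes of -0.42 and -0.36 with limma adjusted p of 0.111 and 0.176. For the cross-linking genes Pxdn, which forms sulfilimine bonds in type IV collagen, and Tgm2, a transglutaminase, the values were -0.10 and 0.20. The receptors Itgb1, an integrin subunit, and Ddr1, a collagen-binding tyrosine kinase, had log2 fold changes of 0.06 and -0.19. Hspg2 (perlecan) and Lama5 (a laminin chain), basement membrane partners of type IV collagen, had log2 fold changes of -0.07 and 0.09 with adjusted p of 0.851 and 0.742. Mmp2 and Mmp14, which cut collagen and its fragments, had -0.30 and -0.17 with adjusted p of 0.116 and 0.448. At an unadjusted p under 0.05, 2 propeptide and 2 breakdown genes were lower, and none of the 6 cross-linking, 6 receptor and 8 basement membrane genes.

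**Figure D4:**
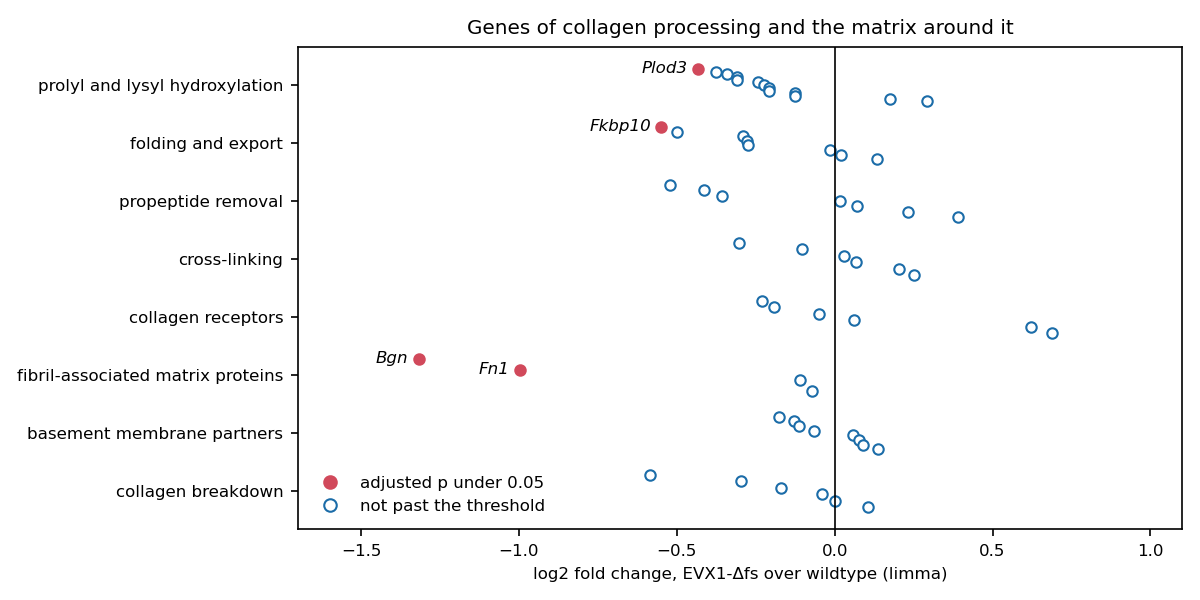
Fold change (log2, limma, EVX1-Δfs over wildtype, 3 libraries each) of 58 tested genes that process collagen or share its matrix, 1 row per role with small vertical offsets that only separate points; filled points have an adjusted p under 0.05. The 4 filled points, Plod3, Fkbp10, Bgn and Fn1, lie left of 0, and the basement membrane row lies close to 0.

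Markers of cells known to make collagen were set beside these values. Of 10 fibroblast markers, 5 were tested and none was called by limma or edgeR. DESeq2 called 1 lower, Fbln1 (adjusted p = 0.0431), beside 517 of all genes. At an unadjusted limma p under 0.05, 2 were lower, Fbln1 and Pdgfrb, as were 12.4% of all genes tested. Lum and Dcn, defining fibroblast genes, reached at most 1.91 normalized counts in any library, Postn at most 5.72, and Meox2 was at 0. The summed level of the fibroblast list was 1005 to 1122 normalized counts in wildtype and 820.7 to 878.5 in EVX1-Δfs libraries. Fbln1 was the largest part of it in every library. Of 8 parietal endoderm markers, 5 were tested. Snai1, which is also a gene of the primitive streak, was called lower. Stra6 was called higher by limma and edgeR and given no adjusted p by DESeq2. It stood at 5.74, 9.73 and 4.58 in wildtype and at 22.4, 25.9 and 22.9 in EVX1-Δfs libraries, on 4 to 24 reads. Stra6 thus passed the filter only through the EVX1-Δfs libraries, and its call is not taken as support for a difference. The summed level of that list was 2057 to 2463 in wildtype and 1897 to 2190 in EVX1-Δfs libraries. Snai1 was the large member that was lower, at 905, 801 and 954 in wildtype and 570.5, 525.5 and 351 in EVX1-Δfs libraries. The other tested genes beside Stra6, namely Fst, Pdpn and Prss23, had log2 fold changes of 0.21, 0.05 and 0.09 and were not called. The sum thus does not describe the list without Snai1. Visceral endoderm markers were scarce, with Afp and Ttr at or below 1.91 and 1 of 7 listed genes tested.

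Markers of primitive streak and early mesoderm, cells that serum EBs of this age are known to hold, were present at unlike levels. T stood highest, at 2759 to 5299 normalized counts over all libraries, while Foxf1 stood at 110 to 350 and Tbx6 at 38.3 to 93.9. Of 9 such markers, 8 were called lower in EVX1-Δfs EBs, beside 2.95% of all genes tested. The median log2 fold change of the 9 was -0.89, and Pdgfra, which was not called, had 0.08. The list is not independent of these data, since the paper reports Mixl1, Mesp1, Eomes, Kdr, Hand1 and Tbx6 as reduced in the same comparison. The count of called markers was 5 with the replicate block, where T, Eomes and Foxf1 were lost. It was 6 with GC and length trends removed, where Eomes and Foxf1 were lost. For the whole list, the summed level was 14980 to 16790 normalized counts in wildtype and 8942 to 10680 in EVX1-Δfs libraries. Of 5 pluripotency markers the main limma fit called none. DESeq2 and edgeR called 4 higher, beside 284 and 309 of all genes. At an unadjusted limma p under 0.05, 4 were higher, as were 10.7% of all genes tested. This list is not independent of these data either, since the paper reports Nanog as raised in the same comparison. With GC and length trends removed, limma called 2 higher, Esrrb and Sox2, and with the replicate block as well 1, Esrrb. The median log2 fold change of the 5 markers in the main fit was 0.41. The part of these cell types in the collagen values was not tested.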

How the data were processed

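RNA-seq was measured in day 4 EBs of W9.5 mESCs and EVX1-Δfs clone 14, with 3 libraries each, grouped by the sample labels. As the study's methods describe, mRNA libraries were read on an Ion Proton, aligned to mm9 by TopHat2 followed by TMAP, and counted with HTSeq at standard settings ahead of DESeq2. Tool versions and the gene annotation used for counting are not given in the sources used here. The deposited table holds a signal, reads per gene divided by a size factor. All values (100%) were whole multiples of 1 step per library within 0.001 reads, so reads were recovered for the count tests.

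limma (3.58.1, R 4.3.3, mean-variance trend) was run on log2(value + 1) over 13136 genes with at least 10 in at least 3 libraries, with Benjamini-Hochberg adjustment over all of them. DESeq2 (1.42.0) and edgeR (4.0.16) on recovered reads, pseudocounts of 4 and 16, filters of none and 50, TMM and upper-quartile scaling, voom, a replicate block, removal of GC and length trends (natural splines of 5 degrees of freedom) and omission of each library were alternatives. The fits were also run on simulated counts, drawn without a day effect and without a GC or length trend. Those counts therefore cannot show how well the replicate block or the trend removal handles such effects. Collagen members and gene lists were chosen with earlier results of these data known.

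The series description has each side-by-side pair set up on its own day, and the replicate numbers were taken to name those pairs, which the labels do not state. Deviations of same-numbered libraries from their group means correlated at 0.111, 0.00933 and -0.101. Genes were placed on NCBIM37 (mm9) with GENCODE vM1, which matched 94.1% of symbols. Per-kb levels use the transcript with the longest coding sequence, a choice made after exon lengths were seen. Library-level values were given for called collagens, for the 3 highest per kb in each group and for chains that assemble with these, and partner genes named were those called and the 2 highest of each role. Other members named with values were chosen after these were seen. Permutation tests of chain ratios were exact and two-sided.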

Additional observations from a re-analysis of the deposited data

How the results depend on the processing

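Col1a1 and Col1a2 were called lower in all 19 fits, and Fn1 among the partner genes. Collagens called lower numbered 4 in the main result, 2 with the replicate block, 2 with the replicate block and GC and length trends removed, and 2 to 6 when 1 library was left out. No alternative called a collagen higher. Partner genes called lower went from 4 to 2 with the replicate block, 2 with trends removed, 1 with both, and 2 to 5 when 1 library was left out. Over all genes, 387 were called lower and 273 higher, against 146 and 76 with the replicate block, 150 and 107 with trends removed, 91 and 49 with both, and 140 to 362 and 80 to 340 when 1 library was left out. The causes of these shifts were not tested. The replicate block also ended the calls of Col4a2, Col9a1, Plod3 and Bgn and no other call among the named collagens and partner genes. Among the markers it ended those of T, Eomes and Foxf1. The median of all genes moved by at most 0.03 (log2) under any scaling.

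Differences of mean log2 chain ratios ran from -1.09 to -0.55 (Col1a1 to Col1a2), 0.10 to 0.16 (Col4a1 to Col4a2), -0.50 to 0.11 (Col5a1 to Col5a2) and -0.34 to 0.27 (Col6a1 to Col6a2) when 1 library was left out. With trends removed, an alternative chosen after seeing the data, they were -0.56 against -0.85 (Col1a1 to Col1a2, exact permutation p of 0.3 against 0.1), 0.090 against 0.13 (Col4a1 to Col4a2, 0.3 against 0.1), 0.13 against -0.13 (Col5a1 to Col5a2) and -0.062 against -0.12 (Col6a1 to Col6a2).

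Of 299 values of named collagens under an alternative, 262 kept direction and side of the threshold, 14 lost a call, 2 gained one and 21 changed sign. Of 323 of partner genes, 300 kept both, 12 lost a call and 11 changed sign. Each sign change was of a gene not called. With upper-quartile scaling, Col18a1 was 0.019 and Col4a6 0.00158. Col18a1 was 0.000202 in edgeR, and Col6a1 was 0.026 in edgeR and 0.022 in DESeq2. With trends removed, with or without the replicate block, Col18a1 was 0.13, Col4a6 0.00966, Col6a1 0.092, Itgb1 -0.052 and Hspg2 0.051. When 1 library was left out, log2 fold changes ran from -0.067 to 0.020 for Col18a1, -0.35 to 0.15 for Col4a6, -0.31 to 0.27 for Col6a1, -0.056 to 0.30 for Col9a3, -0.19 to 0.018 for Pxdn, -0.016 to 0.13 for Itgb1, -0.24 to 0.050 for Sparc, -0.34 to 0.11 for Hspg2 and -0.096 to 0.23 for Lama5. Depth limited the 10 untested collagens and Col9a1, whose values rest on at most 55 reads. It also limited tested collagens with fewer reads, such as Col14a1 (4 to 25), Col12a1 (5 to 16) and Col20a1 (3 to 15).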
